A study of Sus scrofa with 8 samples.

Results

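miR-21-5p is 1 of the 13 porcine miRNAs in the primer table of a study of milk exosomes, which also lists miRNAs of other species, and it was followed here through all 8 small RNA libraries. Exosomes are small membrane vesicles, and those of milk were precipitated after fat and cells had been removed. The milk came from 3 healthy Yorkshire sows that had farrowed before. The libraries 0d-1, 0d-2 and 0d-3 were each made from a single sow on the day of birth. For the later stages, the libraries 3d, 7d, 14d, 21d and 28d, named by the day of lactation, were each made from RNA pooled over the sows. Following the study, 0 and 3 days count as colostrum (n = 4 libraries) and 7 days onward as mature milk (n = 4 libraries). A read was counted as miR-21-5p when its insert, the stretch before the 3′ adaptor, was 18 to 26 nt long and began with the first 18 nt of the primer table's sequence. These 18 nt differ from the same stretch of each of the other 12 miRNAs at 10 or more positions, so that reads could not be shared among the 13. miR-21-5p was chosen with earlier results of these data known, because its share had appeared to differ little between libraries. Its levels are therefore given as a description, without a test.

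miRNAs are cut from hairpin precursors, and bases 2 to 8 of the mature strand, the seed, pair with target messenger RNAs and lower their output. miR-21-5p is abundant in many epithelial and immune cells and is known for repressing PDCD4, a tumour suppressor. Its 3′ end is known to vary, since enzymes such as PAPD5 add adenines to it and others such as PARN trim it. In the RefSeq gene table of the assembly Sscrofa11.1, the gene MIR21 lies between PTRH2 and TUBD1. No coordinates are given, since the methods of the study name an older assembly.

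The sequence that defined miR-21-5p is shown first, with its seed in capitals, because every count rests on it. It is followed by the other forms that together with it made up nearly all the counts. In those, capitals mark the bases that depart from, or go past, the primer table's sequence of 23 nt.
miR-21-5p, primer table: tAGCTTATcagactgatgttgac
22-nt form: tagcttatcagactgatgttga
21-nt form: tagcttatcagactgatgttg
23-nt form with 1 adenine: tagcttatcagactgatgttgacA
23-nt form with 1 thymine: tagcttatcagactgatgttgacT
22-nt form with 1 adenine: tagcttatcagactgatgttgaA
None of the other 12 miRNAs had the seed of miR-21-5p, whereas miR-30a-5p, miR-30c-5p and miR-30d-5p shared 1 seed among themselves. Letters are those of the sequenced cDNA, with T in place of U.

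The 8 libraries held from 14590531 to 28141425 reads. Inserts of 18 to 26 nt numbered from 803940 in 7d to 13896127 in 0d-3, and they made up 76.2% of the reads of 0d-3 but 3.35 to 18.2% of those of the other 7 libraries. 0d-3 stood apart from the other libraries in other ways too, with miR-148a-3p at 0.102% of the counts of the 13 miRNAs against 62.0 to 74.4% elsewhere. Several values that rest on 0d-3, among them the mean levels of colostrum and the spread, are therefore also given without it. The means of the single forms and of some end measures include it. The methods give reads of 36 nt, but only 7d and 21d had that length in the files, and the other 6 libraries had reads of 40 nt.

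miR-21-5p was detected in all 8 libraries, in moderate amounts. It had 3539 counts in 0d-1, 3242 in 0d-2, 20894 in 0d-3 and 2485 in 3d. In mature milk it had 1053 counts in 7d, 1971 in 14d, 2422 in 21d and 4665 in 28d. It ranked 11 among the 13 miRNAs in 6 libraries, 12 in 0d-3 and 6 in 3d. Among all inserts grouped by their first 18 nt, its rank was between 51, in 0d-3, and 136, in 0d-2.

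Relative to the summed counts of all 13 miRNAs, miR-21-5p took 1.30% in 0d-1 (95% Wilson interval 1.26 to 1.34%), 0.788% in 0d-2 (0.761 to 0.815%), 0.679% in 0d-3 (0.670 to 0.688%) and 2.35% in 3d (2.26 to 2.44%). In mature milk the share was 1.03% in 7d (0.969 to 1.09%), 1.11% in 14d (1.06 to 1.16%), 1.12% in 21d (1.08 to 1.17%) and 1.42% in 28d (1.38 to 1.46%). The intervals cover counting error only. Colostrum held both the lowest libraries and the highest one, and all 4 mature milk libraries lay inside its range. The mean was 1.28% ± 0.762 for the colostrum libraries and 1.17% ± 0.170 for those of mature milk (SD, n = 4 each). These SDs are not alike in kind, since 0d-1, 0d-2 and 0d-3 were of single sows and the mature milk libraries were pools. Without 0d-3 the colostrum mean was 1.48% ± 0.794 (SD, n = 3). Mature milk stood at 0.916 times colostrum with all libraries, the ratio nearest to 1 among the 13, and at 0.792 times without 0d-3, the ratio farthest from 1.

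**Figure D1:**
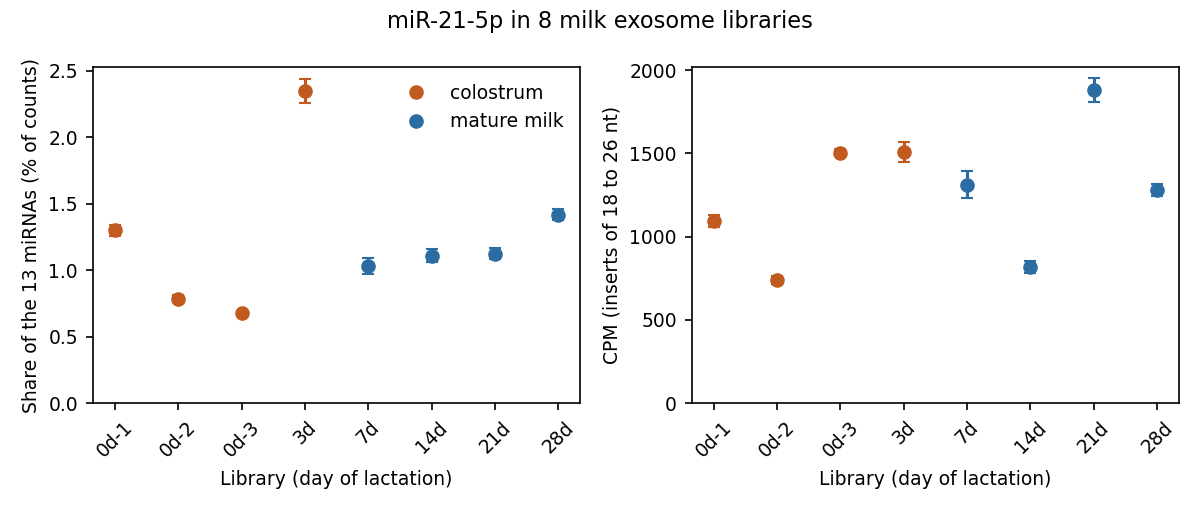
Level of miR-21-5p in each library, as % of the counts of the 13 miRNAs (left) and as CPM, counts scaled to a common total of inserts of 18 to 26 nt (right), with 95% Wilson intervals for counting error. The 3d library, at 2.35%, is the highest by the first measure and the 21d library, at 1879, by the second. Reads in which a short leader precedes the miRNA are left out.

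The CPM, the counts scaled to a common total of inserts of 18 to 26 nt, gave another order. It was 1093 in 0d-1, 738 in 0d-2, 1504 in 0d-3 and 1507 in 3d, and 1310 in 7d, 816 in 14d, 1879 in 21d and 1281 in 28d. The highest was 2.54 times the lowest, against 3.45 times for the share of the 13. By this measure 0d-3 and 3d were nearly equal, although they were the lowest and the highest by the share of the 13. The means were 1211 ± 370.0 for colostrum against 1321 ± 435 for mature milk (SD, n = 4 each), and without 0d-3 the colostrum mean was 1113 ± 385 (SD, n = 3). The total of this measure includes inserts of other RNA classes, and the total of the other includes miR-148a-3p. When miR-148a-3p was left out of the total, the share of miR-21-5p ranged from 0.680% in 0d-3 and 2.19% in 0d-2 to 7.73% in 3d.

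The 3 libraries of the day of birth, the only stage with replicates, had a mean share of 0.922% ± 0.331 (SD, n = 3). Between 0d-1 and 0d-2, the libraries that resembled each other in the rest of the 13, the share of miR-21-5p differed by a ratio of 1.65. For the other 12 miRNAs, whose likeness singled out this pair, the same ratio lay between 0.946 and 1.10, so the contrast is a description only. These ratios are for reads that begin with the miRNA. When the reads in which a miRNA follows a short leader, described further on, were added, the share of miR-21-5p was 7.79% in 0d-1 and 8.56% in 0d-2. The ratio was then 0.910, on the other side of 1, with 0.953 to 1.12 for the other 12. A sow and her library cannot be told apart here.

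miR-21-5p was chosen for a low spread, but the place of its spread among the 13 depended on single libraries. Over all 8 libraries the SD of its log2 share was 0.55, which ranked 6 from the lowest among the 13. miR-30d-5p had the lowest SD, 0.37, and miR-148a-3p the highest, 3.30. When 0d-3 was left out, the SD of miR-21-5p was 0.49 and the highest of the 13, with miR-182-5p next at 0.36 and miR-148a-3p lowest at 0.0986. The highest share of miR-21-5p was then 2.98 times the lowest, and for the other 12 that ratio was from 1.20 to 1.93. The library with the highest share in that set was 3d and the lowest was 0d-2, both of colostrum. When 3d was left out in place of 0d-3, the SD of miR-21-5p was 0.38 and the lowest of the 13, with miR-30d-5p at nearly the same value. Without both libraries the SD was 0.29, which ranked 10 from the lowest, and miR-182-5p was highest with 0.36. The spread of miR-21-5p thus ranked anywhere from 1 to 13, and a small difference between libraries is not a fixed property of it in these data. With leader reads added, its SD was 1.41 over all 8 libraries, rank 12, and 1.05 without 0d-3, rank 13.

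**Figure D2:**
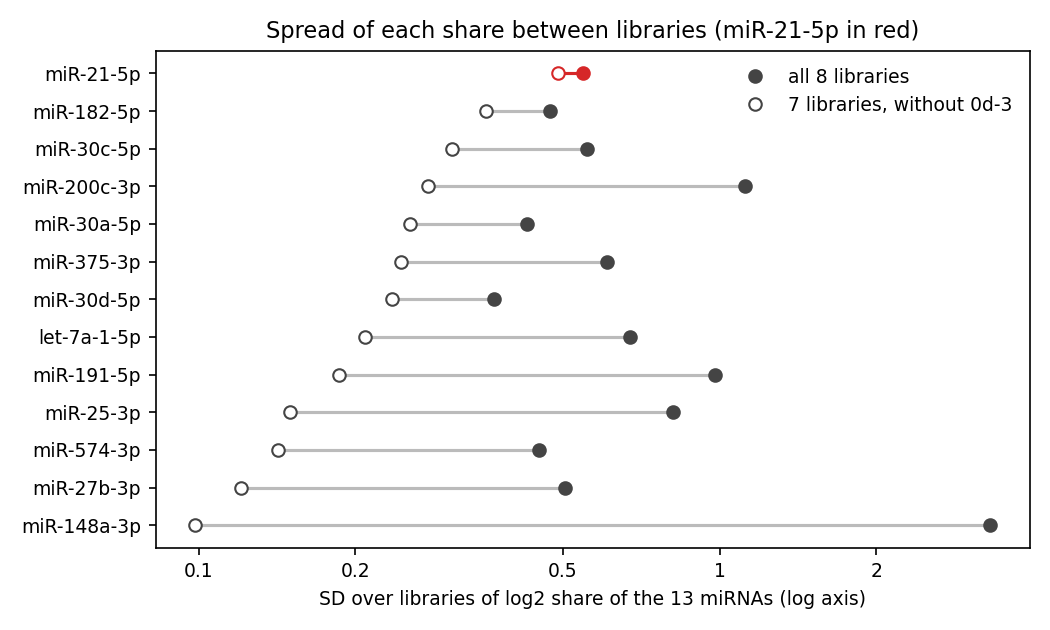
SD over libraries of the log2 share of each of the 13 miRNAs, with all 8 libraries (filled) and without 0d-3 (open), on a log axis. miR-21-5p moves from 0.55 to 0.49 and is the highest of the 13 among the open points.

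The miRNAs with the most constant ratio of counts to miR-21-5p were sought by the SD over libraries of the log2 ratio. A lower value means a more constant ratio. Over all 8 libraries they were miR-30d-5p with 0.81, miR-30a-5p with 0.86 and miR-574-3p with 0.89. Without 0d-3 they were miR-148a-3p with 0.49, let-7a-1-5p with 0.51 and miR-574-3p with 0.54. Only miR-574-3p was among the nearest 3 in both sets. The remaining miRNAs lay within 0.54 to 0.67 without 0d-3, so that the order among them separates little. The SD of the log2 share of miR-21-5p itself was 0.55 over all 8 libraries and 0.49 without 0d-3. No ratio was clearly more constant than that share, so a place in this list does not show that counts moved together. Both counts of a ratio come from the same library, while totals and read lengths differed between libraries, and the values are a description.

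The 3′ end of miR-21-5p was not used to choose it. Its inserts were almost all 21 to 24 nt long, and 2 forms of about equal size led. The 23-nt primer table form took 45.4% of its counts in 0d-1, 33.0% in 0d-2, 37.4% in 0d-3 and 60.4% in 3d. In mature milk it took 37.6% in 7d, 44.7% in 14d, 38.8% in 21d and 45.5% in 28d. The 22-nt form, without the last cytosine, took 36.5, 49.8, 38.4 and 25.0% in 0d-1, 0d-2, 0d-3 and 3d, and 51.5, 41.2, 45.8 and 38.2% in 7d, 14d, 21d and 28d. Each form was the commonest in 4 of the 8 libraries. The ratio of the 23-nt to the 22-nt form ranged from 0.663 in 0d-2 to 2.41 in 3d, with 1.24 in 0d-1. The library 3d, which had the highest share of miR-21-5p among the 13, also had the highest share of the 23-nt form.

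The 23-nt form with 1 adenine was the next largest, with 7.84% ± 3.57 of the counts (SD, n = 8 libraries), and it ranged from 1.99% in 7d to 14.7% in 0d-3. The 21-nt form had 3.86% ± 1.52, the 23-nt form with 1 thymine 2.15% ± 0.934 and the 22-nt form with 1 adenine 0.977% ± 0.268 (SD, n = 8 each). Together the 6 forms accounted for 98.0 to 99.2% of the counts in every library. Among inserts of 24 nt, adenine was the added base in 60.3% in 3d and in up to 83.3% in 0d-3. Guanine and cytosine each followed the 23-nt form in under 0.8% of the counts, from 0.185 to 0.785% for guanine and from 0.190 to 0.684% for cytosine. The precursor was not used here, so that an added base cannot be told apart from a base of the hairpin.

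**Figure D3:**
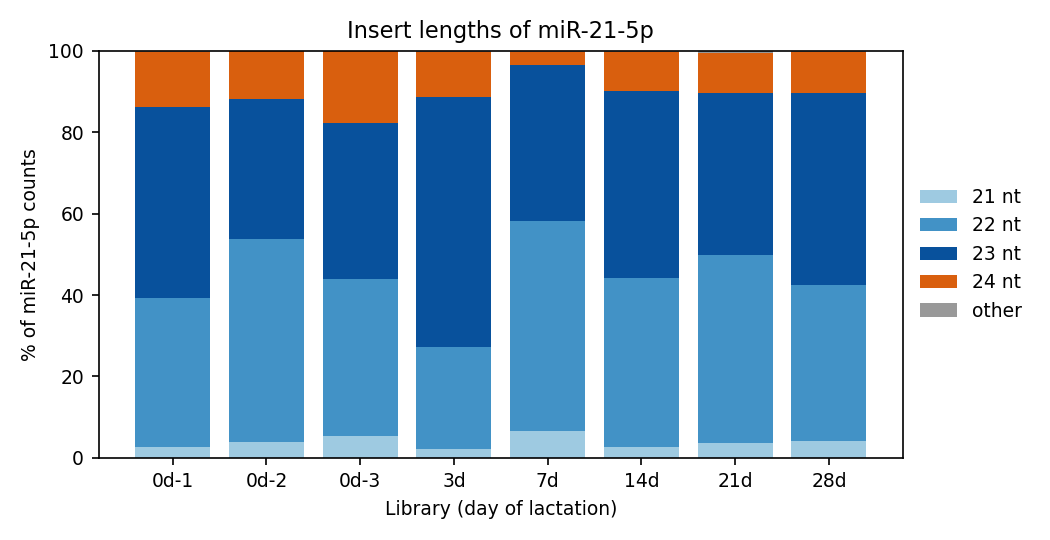
Insert lengths of miR-21-5p as % of its counts in each library, stacked to 100%. Inserts of 22 and 23 nt make up most of each bar, and those of 24 nt range from 3.13% in 7d to 17.7% in 0d-3.

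With all 8 libraries, long inserts were the measure of the ends in which colostrum and mature milk did not overlap. The difference did not pass the adjusted test. Inserts longer than 23 nt took 13.7% of the miR-21-5p counts in 0d-1, 11.7% in 0d-2, 17.7% in 0d-3 and 11.2% in 3d. They took 3.13% in 7d, 9.59% in 14d, 9.66% in 21d and 10.1% in 28d and thus less than in each colostrum library. The means were 13.6% ± 2.93 and 8.13% ± 3.34 (SD, n = 4 each), a difference of 5.44 percentage points (exact permutation test over 70 assignments, two-sided, p = 0.0286, the smallest p this design allows). After Benjamini-Hochberg adjustment over the 8 measures of the ends the difference did not pass the threshold of 0.05 (exact permutation test, adjusted p = 0.229). With 8 measures, a single measure at the smallest p cannot pass this threshold alone. Without 0d-3 the difference was 4.07 points (exact permutation test, unadjusted p = 0.0571), and in the libraries of 40-nt reads it was 3.71 points (exact permutation test, unadjusted p = 0.133, smallest possible 0.0667). The library 7d, of 36-nt reads, was the lowest of the mature milk libraries for miR-21-5p and for each of the other 12 miRNAs in the share of inserts longer than the primer table's sequence. Without it the difference was 3.77 points (exact permutation test, unadjusted p = 0.0857). Of the other 12 miRNAs, 10 had a higher mean share of such inserts in colostrum, and the median difference over the 12 was 0.970 points. None had milk classes that did not overlap. That median includes miRNAs with few such inserts, among them miR-148a-3p (0.161 points) and miR-30c-5p (0.0342 points). The differences were larger, though below 5.44, for miR-30a-5p (3.775 points), miR-30d-5p (3.396 points) and miR-191-5p (3.147 points). These had larger shares of such inserts than miR-21-5p. Lower in colostrum were let-7a-1-5p (-0.0963 points) and miR-574-3p (-0.398 points). The part of read length and of 0d-3 in the result was not tested.

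The share of the counts in which a match to the primer table's sequence was followed by 1 or more adenines was 10.6% in 0d-1, 10.4% in 0d-2, 15.7% in 0d-3 and 7.44% in 3d. It was 2.56% in 7d, 7.51% in 14d, 8.51% in 21d and 8.32% in 28d. Only the 3d library of colostrum lay within the range of mature milk. The means were 11.0% ± 3.42 and 6.72% ± 2.81 (SD, n = 4 each), a difference that did not pass the test (exact permutation test, two-sided, p = 0.114, adjusted p = 0.229). The difference was 4.30 points with all libraries, 2.74 points without 0d-3 and 2.91 points without 7d. Without 3d it was 5.49 points (exact permutation test, unadjusted p = 0.0286, the smallest possible, adjusted p = 0.114). Thymine after such a match took 2.91% ± 0.908 for colostrum against 1.68% ± 0.639 for mature milk (SD, n = 4 each; exact permutation test, two-sided, p = 0.0857, adjusted p = 0.229). Without 0d-3 the milk classes did not overlap in this measure. The difference was then 1.56 points (exact permutation test, unadjusted p = 0.0286, the smallest possible, adjusted p = 0.229).

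**Figure D4:**
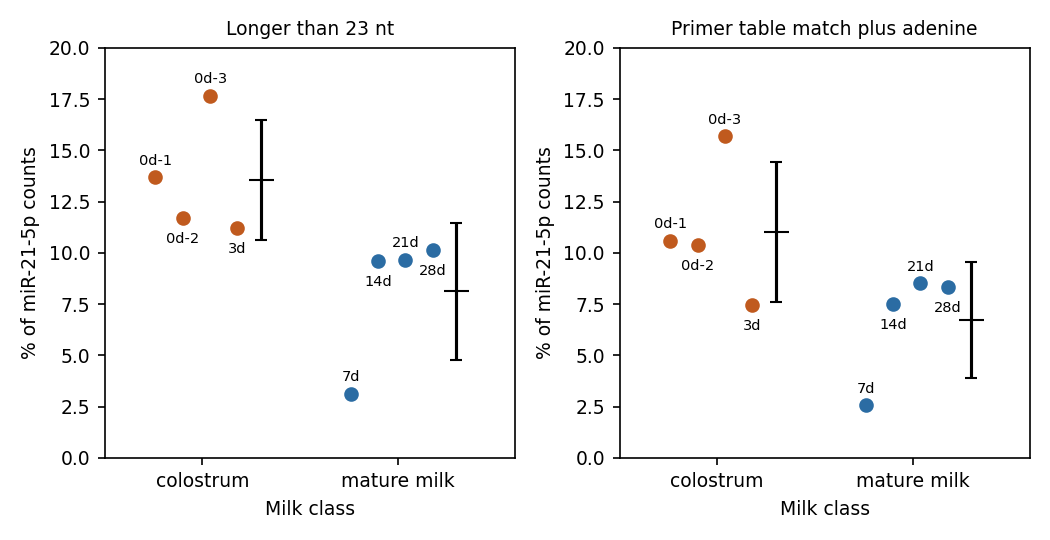
Share of miR-21-5p counts in inserts longer than 23 nt (left) and in inserts with added adenine (right), with 1 point for each library and the mean and SD of each milk class in black. All colostrum points lie above the mature milk points on the left, and the 3d point, at 7.44%, lies among them on the right.

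No other measure of the ends separated the milk classes. The mean insert length was 22.69 ± 0.114 nt for colostrum against 22.54 ± 0.118 nt for mature milk (SD, n = 4 each; exact permutation test, two-sided, adjusted p = 0.229). Inserts of 22 nt took 37.5% ± 10.1 and 44.3% ± 5.72, and the exact 23-nt form took 44.1% ± 12.05 and 41.7% ± 4.04 (SD, n = 4 each; exact permutation test, adjusted p = 0.457 and 0.83). Inserts shorter than 22 nt took 3.54% ± 1.38 and 4.72% ± 1.70 (SD, n = 4 each; exact permutation test, adjusted p = 0.495). An end that departed from the primer table's bases 19 to 23 was found in 1.52% ± 0.196 and 1.41% ± 0.456 (SD, n = 4 each; exact permutation test, adjusted p = 0.83).

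The ends of miR-21-5p were more mixed than those of most of the 13. Its commonest form took 47.7% ± 6.43 of its counts (SD, n = 8), from 38.4% in 0d-3 to 60.4% in 3d. The median over the other 12 miRNAs was 64.5% ± 3.61, and miR-21-5p lay below it in 8 of 8 libraries, by 16.8 percentage points on average (exact sign-flip permutation test over libraries, two-sided, p = 0.00781, the smallest p that 8 libraries allow). Without 0d-3 the difference was -14.2 points (exact sign-flip permutation test, p = 0.0156). The test asks only whether the difference repeated over these libraries, not whether miR-21-5p is unusual among the 13. miR-21-5p ranked from 1 to 6 from the lowest. The commonest forms of let-7a-1-5p, miR-30a-5p, miR-30c-5p and miR-191-5p took 38.2 to 50.4%, whereas 98.4 to 99.4% of the miR-148a-3p counts were of a single form. The commonest form does not measure length alone. For let-7a-1-5p it took 38.7% in 7d and 46.9% in 0d-3, but inserts of 22 nt took 77.9 and 81.8%. The counts of let-7a-1-5p may include relatives of the same start. With the commonest length in place of the commonest form, miR-21-5p differed from the median of the other 12 by -26.4 points.

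Few inserts began later than miR-21-5p. Inserts that began 1 base later amounted to 0.641% in 0d-3 and to 1.35 to 2.90% elsewhere, relative to its counts. Reads with 1 base before miR-21-5p, with no adaptor required, numbered 342, 459, 113 and 290 in 0d-1, 0d-2, 0d-3 and 3d. Those that began with it numbered 3663, 3296, 20929 and 2515. In 7d, 14d, 21d and 28d there were 23, 194, 62 and 503, against 1078, 2000, 2477 and 4711. The origin of the preceding base was not tested. Inserts with a single substitution within the first 18 nt were counted apart. The commonest in 7 libraries was T1A, with positions counted from 1 at the 5′ end and the primer table's base first. It amounted to 15.9% of the miR-21-5p counts in 0d-1, 24.4% in 0d-2 and 1.81% in 3d. It amounted to 13.7, 20.3, 6.11 and 14.7% in 7d, 14d, 21d and 28d, and was seen once, as 1 count, in 0d-3. In 0d-3 the commonest was T17G, with 0.53%. All single substitutions other than T1A together amounted to 1.36 to 4.44% over the 8 libraries. With T1A the start reads as 1 of the 4 leaders described next, followed by miR-21-5p without its first 5 bases.

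In all libraries but 0d-3, reads in which 1 to 6 bases preceded miR-21-5p outnumbered those that began with it, by a ratio of 1.07 in 7d, 1.47 in 21d and up to 17.5 in 0d-2. In the same 7 libraries, 4 sequences of 5 nt, called leaders here, accounted for 93.5 to 95.7% of the 5-nt inserts, and reads in which a leader was followed directly by the first 18 nt of miR-21-5p were common. They are shown because they carry that signal, with the leader in capitals and the 23-nt form behind it.
leader 1: CGTGAtagcttatcagactgatgttgac
leader 2: AAGCTtagcttatcagactgatgttgac
leader 3: TCAAGtagcttatcagactgatgttgac
leader 4: GATCTtagcttatcagactgatgttgac
The origin of the leaders was not tested. This comparison was chosen after the values were seen, and it used reads with no requirement for an adaptor.

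Reads of miR-21-5p after a leader numbered 22629 in 0d-1, 40968 in 0d-2, 4171 in 3d, 639 in 7d, 14127 in 14d, 2112 in 21d and 32465 in 28d. Reads that began with miR-21-5p itself numbered 3663, 3296, 2515, 1078, 2000, 2477 and 4711 in the same order. In 0d-3 only 26 reads had miR-21-5p after a leader, against 20929 that began with it. Reads directly after 1 of the 4 leaders thus exceeded those that began with miR-21-5p in 5 of the 8 libraries, by a ratio of 1.66 in 3d and of up to 12.4 in 0d-2, and they were fewer in 7d and 21d, with ratios of 0.593 and 0.853.

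miR-21-5p stood out among the 13 in the reads with a leader. It took 41.6% of the leader reads of the 13 in 0d-1 (95% Wilson interval 41.2 to 42.0%), 43.4% in 0d-2 (43.1 to 43.7%), 34.6% in 3d (33.7 to 35.4%) and 32.9% in 7d (30.9 to 35.1%). It took 41.8% in 14d (41.3 to 42.4%), 34.5% in 21d (33.3 to 35.7%) and 42.1% in 28d (41.8 to 42.5%), and it was the largest of the 13 in each of these 7 libraries. The mean was 38.7% ± 4.48, against 1.29% ± 0.501 among the reads that began with a miRNA (SD, n = 7 libraries). The highest share was 1.32 times the lowest after a leader and 3.00 times without one. A constant share after a leader was not particular to miR-21-5p. The SD of the log2 share there was 0.170 for miR-21-5p, 0.137 for miR-148a-3p and 0.181 for miR-30c-5p. miR-148a-3p, which led the reads without a leader in these libraries, took 8.50 to 11.2% of the leader reads, and let-7a-1-5p took 11.4 to 21.95%.

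**Figure D5:**
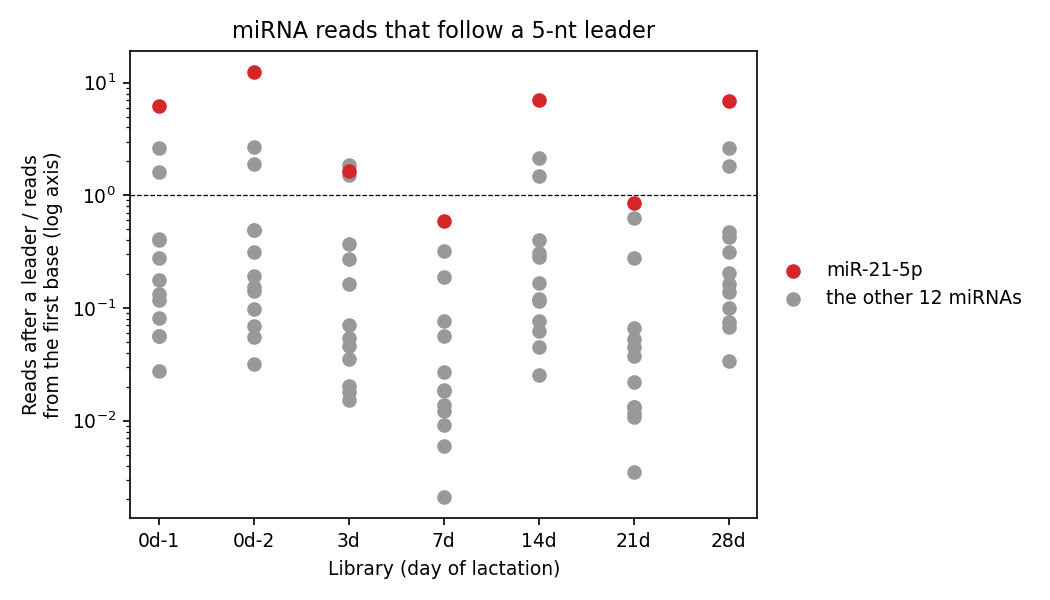
Ratio of the reads in which a miRNA follows a leader to the reads that begin with it, on a log axis, for miR-21-5p (red) and the other 12 miRNAs (grey) in the 7 libraries with leaders. miR-21-5p is the highest in 6 libraries, with up to 12.4 in 0d-2, and lies below let-7a-1-5p in 3d.

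The ratio of leader reads to reads without a leader was higher for miR-21-5p than for each of the other 12 miRNAs in 6 of the 7 libraries. miR-27b-3p was next in those 6, with 2.64 in 0d-1 and 0.318 in 7d. In 3d let-7a-1-5p had 1.85, against 1.66 for miR-21-5p. The median of the other 12 lay between 0.0184 in 7d and 0.185 in 28d, and miR-148a-3p lay between 0.00212 and 0.0338.

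The 4 leaders did not carry miR-21-5p equally. In 6 libraries leader 2 preceded 63.0 to 71.5% of its leader reads, whereas in 3d leader 3 preceded 50.1% and leader 4 preceded 39.0% of them. As a share of the 13 within a leader, miR-21-5p took 42.2 to 51.5% after leader 2 and 40.9 to 46.7% after leader 4 in the 7 libraries. It took 26.4 to 37.9% after leader 3 and 15.5 to 26.9% after leader 1. It was the largest of the 13 after every leader in every one of the 7 libraries except after leader 1 in 7d, where miR-30d-5p had 20.9%, and in 21d, where miR-27b-3p had 24.9%.

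After a leader, the ends of miR-21-5p were more often short, which is a description without a test. In the 5 libraries of 40-nt reads with leaders, 52.4 to 54.4% of the trimmed leader inserts carried 22 nt of miR-21-5p, 18.4 to 27.9% carried 23 nt and 13.1 to 22.6% carried 21 nt. Those of 24 nt amounted to 2.58 to 4.99%. Added adenine was found in 2.72 to 4.02% of them, against 7.44 to 10.6% of the inserts without a leader in the same 5 libraries. In neither set does the 22-nt form count as added adenine. The 22-nt form was the commonest after a leader in all 8 libraries, with only 25 trimmed inserts in 0d-3. In reads of 36 nt a leader with 24 nt of miR-21-5p leaves fewer than the 8 adaptor bases required, so that 7d and 21d were left out of these ranges.

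Reads in which miR-21-5p followed 4 bases in place of 5 were also seen, with 9045 in 0d-1, 13625 in 0d-2, 1909 in 3d and 424, 5337, 1288 and 11789 in 7d, 14d, 21d and 28d. Those with 2 preceding bases numbered 57 or fewer in every library. The leaders also bear on the seed. Of the inserts of 18 to 26 nt with the seed of miR-21-5p at bases 2 to 8, the members made up 98.1% in 0d-3 but 34.0% in 0d-2 and 86.6% in 3d, with 39.6 to 70.6% in mature milk and 44.6% in 0d-1. Inserts that began with leader 2, whose last bases form part of that seed, accounted for 65.5% of them in 0d-2, 12.2% in 3d and 0.0141% in 0d-3.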

How the data were processed

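The authors deposited, for each of the 8 Illumina Genome Analyzer II libraries, counts of distinct untrimmed read sequences, with identical reads combined and no normalization. Kinds seen once and the 3′ adaptor were still present. The adaptor was read from the bases that follow whole sequences of the study's primer table, and reads were trimmed where its first 8 nt occurred exactly for the first time. Trimmed reads of 18 to 26 nt, free of undetermined bases, entered the counts whatever their number. The 13 miRNAs of that table were recognised by their first 18 nt, which joins let-7a-1-5p and miR-27b-3p with any relatives of the same start. The member, the lists and the tests were chosen with earlier results of these data known.

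Shares have 95% Wilson intervals, and these describe sampling of reads alone, since PCR copies were not marked. Milk classes were compared with two-sided exact permutation tests over all 70 assignments of 4 and 4 libraries, and miR-21-5p with the other 12 miRNAs by an exact sign-flip test. Benjamini-Hochberg adjustment covered the 8 measures of the ends. Single libraries of a stage served as replicates of their milk class. The p-values place the observed difference among those of all assignments of these libraries, and they take the libraries as exchangeable. The colostrum libraries other than 3d were of single sows, whereas those of mature milk were pools. Apart from 3d, milk class thus cannot be told apart from pooling, and the tests take no account of sows shared between libraries. The measures meant to use the precursor used the primer table's sequence in its place, since no pig miRNA catalogue was used here, and marker miRNAs of blood and other cells, miR-21-3p and further seed relatives were not analysed for the same reason. The named miRNAs are the other 12 of the primer table and the 3 nearest to miR-21-5p by the log2 ratio of counts. The named forms are those among the 5 commonest of any library. The 22-nt form with 1 adenine and the forms with guanine or cytosine were chosen after their values were seen. Alternatives were other starts, mismatches, adaptor matches, lengths, totals and count minimums, medians, the libraries of 40-nt reads and leaving out each library. The leader reads alone or added to the others, the spread without 3d, reads without an adaptor requirement, the commonest length and the 40-nt libraries without 0d-3 were added after the data were seen. The code was tested on simulated data. Python 3.11.15, numpy 2.4.6, scipy 1.17.1 and matplotlib 3.10.9 were used.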

Additional observations from a re-analysis of the deposited data

Results flagged for a closer look

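Among the 4 libraries of mature milk, 7d was far below the rest in the share of miR-21-5p inserts longer than 23 nt, with 3.13%, and in the share with added adenine, with 2.56%. These were 2 of 20 groups of 4 libraries tested, where chance gives about 1 in 20 groups, and the measures overlap with each other.

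Reads with a leader before miR-21-5p lie outside the inserts that define the member, and they were above the level of 0d-3, the library almost without leaders, in both number and share. The share of miR-21-5p among the leader reads of the 13 was 41.6% in 0d-1, 43.4% in 0d-2, 34.6% in 3d, 32.9% in 7d, 41.8% in 14d, 34.5% in 21d and 42.1% in 28d. In 0d-3 it was 16.8%, from 26 of 155 reads (95% Wilson interval 11.7 to 23.4%).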

How the results depend on the processing

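The mean share of miR-21-5p among the 13 miRNAs, 1.22%, lay between 1.06 and 1.30% when each library was left out. It moved to 0.670% with exact primer table sequences only, to 3.56% of the total without miR-148a-3p and, in alternatives chosen after seeing the data, to 38.7% among reads with a leader in 7 libraries and to 5.34% when reads with and without a leader were added together. The mean CPM of 1266 rose to 1668 when only inserts with more than 10 counts were used, and lay between 1179 and 1341 when each library was left out. With 1 mismatch allowed, which admits T1A, the share was 0.943% in 0d-2 and 0.631% in 0d-3. With all libraries, 1 of the 8 differences of the ends had an unadjusted p under 0.05 in the exact permutation test. None passed an adjusted p of 0.05 under any of the 15 alternatives tried for each, and the lowest adjusted p was 0.114. Outside the 40-nt sets the smallest possible p was 0.0286, so none could pass unless several of the 8 were that low. In the libraries of 40-nt reads none could pass, since the smallest possible p was 0.0667, and 0.1 without 0d-3. The failure to pass therefore says little. The direction turned for the exact 23-nt form in the libraries of 40-nt reads (-1.05 points), with medians (-0.316 points) and without the 3d library (from -3.04 to 6.09 points over all libraries left out). It also turned for ends that depart from the primer table's sequence in the libraries of 40-nt reads (-0.177 points, and -0.147 points with 0d-3 left out as well) and without the 7d library (from -0.106 to 0.248 points over all libraries left out). The cause was not tested. The difference of the commonest form from the median of the other 12 kept its direction and its side of the threshold in each alternative run, from -18.7 to -14.2 points when each library was left out. In 7d, the 1053 counts give a share of 3.13% for long inserts from 33 counts, and each form with a thymine, guanine or cytosine added there rests on 8 or fewer counts. No paired analysis was possible because replicate numbers exist at 0 days only.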
